A study of Homo sapiens with 2 samples.

Results

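The minichromosome maintenance (MCM) family, MCM2 to MCM10, was examined in HepG2 cells treated with hawk tea extract (HTE). The 9 genes were taken by name, and each probe whose RefSeq transcript belongs to 1 of them was used. This gave 14 of the 50599 probes on the array that are not controls, 8 of them for MCM2 to MCM7. HepG2 is an established human liver cancer cell line that divides in culture. RNA was profiled on 1-colour (Cy3) Agilent SurePrint G3 arrays, with 1 array for cells given dimethyl sulfoxide (DMSO) as the control and 1 array for cells given HTE, both for 24 h. The sample labels state 200 μg/mL HTE, whereas the text of the study states a higher dose, and the files do not settle which was used. With 1 array per condition the spread between cultures is unknown, no test between the conditions could be made, and array and treatment cannot be told apart.

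MCM2 to MCM7 form a ring of 6 different subunits, the motor of the helicase that unwinds DNA at replication forks. The ring is loaded onto replication origins before S phase by the origin recognition complex with CDC6 and CDT1, and it is activated when CDC45 and the GINS complex join it. MCM8 and MCM9 form a separate helicase with a role in homologous recombination, and MCM10, which is not related to the ring subunits by sequence, helps the activated helicase to start. In dividing cells, transcription of the ring subunits is a classic target of the E2F factors, which switch on genes needed for S phase.

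The promoters of these genes are shown because the members are best known for this shared control, and the arrays measure the transcripts made from them. RefSeq windows of 300 bases (GRCh38.p14, 250 bases before to 50 bases after each annotated start) were held for 7 of the genes, all but MCM4 and MCM5. Capitals mark the letters searched for as E2F sites, TTTGGCGC, TTTCCCGC, TTTGCCGC or TTTCGCGC on either strand. The 100 bases around the start are printed for genes with these letters near the start, and for MCM6 the 100 bases that hold its matches further upstream. MCM9 and MCM10, whose windows hold none of these spellings, are printed as well.
MCM2, chr3:127598361-127598460, plus strand: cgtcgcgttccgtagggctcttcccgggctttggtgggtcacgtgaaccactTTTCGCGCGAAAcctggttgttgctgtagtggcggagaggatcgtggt
MCM3, chr6:52284693-52284792, minus strand: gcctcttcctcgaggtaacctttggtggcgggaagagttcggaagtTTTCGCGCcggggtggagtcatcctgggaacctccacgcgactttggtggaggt
MCM6, chr2:135876514-135876613, minus strand: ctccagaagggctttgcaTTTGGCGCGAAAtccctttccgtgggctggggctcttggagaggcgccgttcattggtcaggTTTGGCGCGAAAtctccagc
MCM7, chr7:100101348-100101447, minus strand: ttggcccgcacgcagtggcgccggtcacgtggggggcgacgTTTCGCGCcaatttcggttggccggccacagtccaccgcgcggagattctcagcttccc
MCM8, chr20:5950602-5950701, plus strand: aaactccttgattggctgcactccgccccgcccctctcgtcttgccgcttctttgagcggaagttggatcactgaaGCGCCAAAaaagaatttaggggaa
MCM9, chr6:118935110-118935209, minus strand: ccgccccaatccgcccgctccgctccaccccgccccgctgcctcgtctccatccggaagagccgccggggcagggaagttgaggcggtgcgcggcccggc
MCM10, chr10:13161508-13161607, plus strand: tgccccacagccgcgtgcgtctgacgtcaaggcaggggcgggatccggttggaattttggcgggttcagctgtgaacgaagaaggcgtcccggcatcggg

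The E2F letters were present in 5 of the 9 windows of these genes, 1 window each of 5 genes, against 3.31% of all 35116 windows of that length. In MCM2 the match lay at the start itself, from 2 to 13 bases after it, where a match on each strand overlapped the other. In MCM6 the same arrangement of overlapping matches on opposite strands occurred at 2 places, beginning 152 and 90 bases before the start. MCM3 had a match that spanned the start and another beginning 174 bases before it. MCM7 had matches that began 9 and 187 bases before the start of 1 of its 3 windows. The match of MCM8 lay after the start, from 26 to 33 bases, on the opposite strand. In the windows of MCM9 and MCM10 these letters did not occur, which says only that these spellings are not there. The stretch printed for MCM10 holds TTTGGCGG, which differs from the searched TTTGGCGC in the last base alone.

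Other promoter motifs were searched on both strands in the same windows. The CCAAT box (CCAAT) was found in 8 of the 9 windows and in 34.6% of all windows, and the GC box (GGGCGG) in 8 of the 9 and in 45% of all windows. By gene, each was found in 6 of 7, since several of the windows are of MCM7, and some of those overlap. The E-box (CACGTG) occurred in 3 of the 9 windows, those of MCM2, MCM7 and MCM8, against 7.26% of all windows. The CHR element (TTTGAA), known from genes switched on late in the cell cycle, occurred in 0 of the 9 windows and in 15.2% of all windows. Matches overlapped in places, since neighbouring GC boxes of MCM6 and of MCM8 shared a base, as did the E2F and CCAAT letters at the start of MCM7. The GC content of the 9 windows of these genes ran from 57.3% to 72%, with all but that of MCM3 above the median of 58.7% for all windows. The shares of all windows were not matched for GC content. A match is a description of the letters and not evidence of a bound site.

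**Figure D1:**
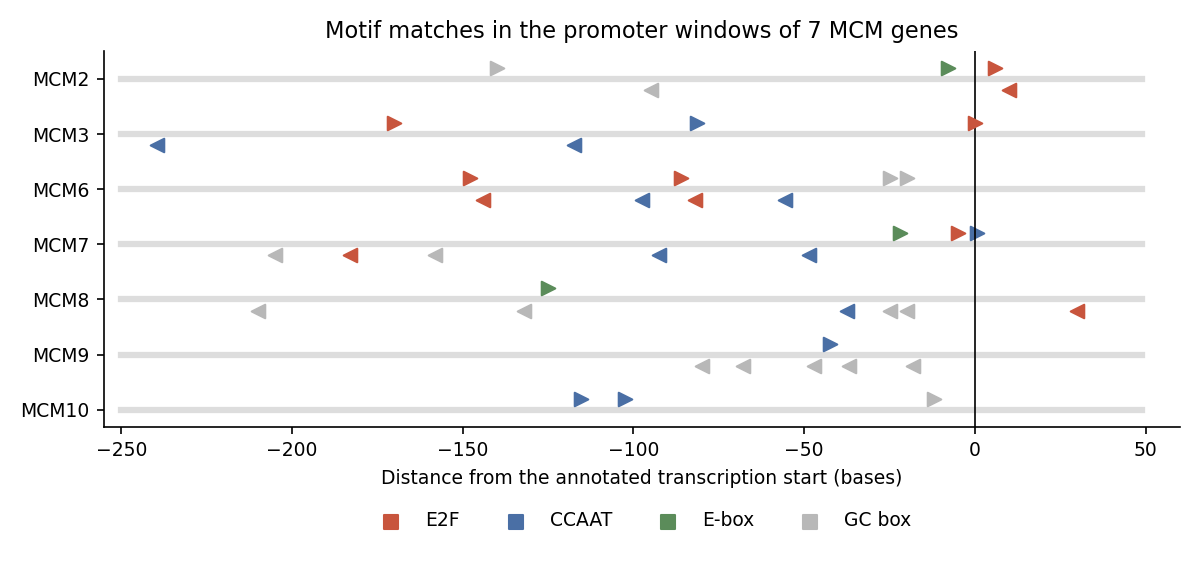
Matches to 4 motifs in 1 promoter window of each of 7 MCM genes, by distance in bases from the annotated start (vertical line), with triangles above the grey bar for the gene's own strand and below it for the other strand. E2F letters (red) lie at or near the start in MCM2, MCM3, MCM7 and MCM8 and at 2 places upstream in MCM6, and do not occur in MCM9 and MCM10.

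Of 58717 spots that are not controls, 60.6% passed background by the software's flag for DMSO and 56.6% for HTE, and none was saturated. The 75th percentile of the processed signal, subtracted on the log2 scale to bring the arrays together, was 4020.0 for DMSO and 3570.3 for HTE. All 16 hepatocyte markers examined were measured, from ALB to FOXA2, with summed signals of 1038114.0 on the DMSO array and 975762.8 on the HTE array before scaling. After scaling 9 of them were higher and 7 lower with HTE, with a median log2 ratio of 0.11 and FGA lowest at −1.12 (2.17-fold lower). Of the markers of other cell types, 3 of 7 for fibroblasts, 2 of 6 for endothelial cells and 4 of 6 for leukocytes passed background for DMSO or HTE. The endothelial sum was 986.1 on the DMSO array and 306.9 on the HTE array, most of it from PECAM1 (804.2 and 202.8). CDH5, KDR, TEK and ERG were not above background. The fibroblast sum was 1472.9 and 1220.5, and the leukocyte sum 9548.4 and 8449.7. After scaling, 3 of the 4 leukocyte markers were higher with HTE by their main probes, and CD14 was 3.42-fold lower. The log2 ratio was 0.46 for CD68, 0.11 for CD79A and 0.14 for PTPRC, whose probes above background ran down to −0.88. The part of these markers in the ratios of the MCM genes was not tested.

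Among 23752 genes and unnamed transcripts measured, 720 (3.03%) were at least 2-fold lower on the HTE array after this scaling, 1248 (5.25%) were at least 2-fold higher, and 49.0% were lower by any amount. Higher genes therefore made up 63.4% of those past 2-fold. This split moved with the scaling, to 42.2% without scaling (1209 lower, 883 higher), to 17.1% with GAPDH as the reference (2639 lower, 543 higher) and to 0.87% with the E1A spike-in probes (16205 lower, 142 higher). The median of all genes moved with it by −0.16, −0.42 and −1.21 on the log2 scale. The median log2 ratio of all genes was 0 as reported here, and the MCM values are read against it. By any amount, 11631 genes were lower and 10849 higher. Some ratios of probes that passed background for DMSO or HTE but not both were set to 0, and these fall at that median. With the own value of dim probes the median was −0.033.

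All 9 MCM genes gave a lower value on the HTE array, and 4 of them, MCM2, MCM4, MCM5 and MCM8, were lower by 2-fold or more, 4 of 9 against the 3.03% of all genes. The 9 of 9 with a lower value stand against the 49.0% of all genes that were lower by any amount. The ratio of HTE over DMSO had a log2 median of −1.07 for the 6 ring subunits and −0.89 for all 9 genes. In bulk RNA, fewer cells of a kind, such as cells in S phase, and less RNA per cell cannot be told apart. Counted by probe, 12 of the 14 were well above background on both arrays, all 12 gave a lower value with HTE, and 5 were past 2-fold, against 2.90% of the 29680 probes of the whole array that passed background for DMSO or HTE.

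**Figure D2:**
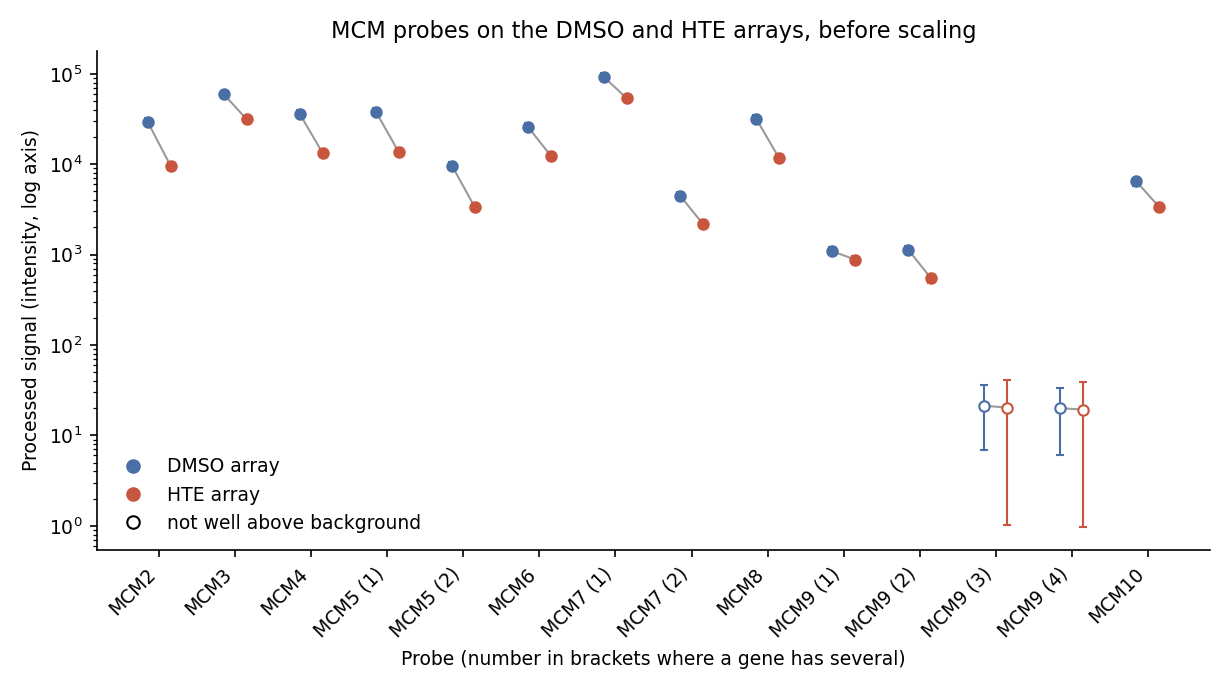
Processed signal (intensity before scaling, log axis) of each of the 14 MCM probes on the DMSO array (blue) and the HTE array (red), with bars for the error that the scanner software gives each signal. The 12 filled pairs all drop from DMSO to HTE, and the 2 open pairs of MCM9 are not well above background on either array.

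Among the ring subunits, MCM2, a subunit that also binds histones, had the lowest ratio. Its probe (NM_004526) read 29235.7 ± 2923.6 on the DMSO array and 9570.7 ± 957.3 on the HTE array, where each error is that given by the scanner software for a single signal. After scaling, the log2 ratio was −1.44 ± 0.20, so that 36.9% of the DMSO level was left, a 2.71-fold lower value. Of the 23752 genes, 190 (0.80%) had a lower ratio. The signals of MCM2 on the arrays were thus further apart than their errors.

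MCM5, which with MCM2 flanks the gate through which the ring opens around DNA, was measured by 2 probes for the same transcript (NM_006739). The brighter probe read 37989.9 ± 3799.0 for DMSO and 13581.6 ± 1358.3 for HTE, a log2 ratio of −1.31 ± 0.20. The dimmer probe read 9620.7 ± 962.2 and 3347.0 ± 335.3, a log2 ratio of −1.35 ± 0.20. The probes lay far apart on the slide and their ratios differed by 0.039, less than the median SD of 0.051 among replicate spots of a probe. By the brighter probe MCM5 was 2.48-fold lower, and 276 genes (1.16%) had a lower ratio.

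MCM4, which belongs to the MCM4/6/7 core that has helicase activity on its own in vitro, read 35721.1 ± 3572.1 on the DMSO array and 13259.7 ± 1326.1 on the HTE array (NM_005914). Its log2 ratio was −1.26 ± 0.20, a 2.39-fold lower value with 41.8% of the DMSO level left. It was close to MCM2 and MCM5, from which it differed by 0.18 and 0.054 on the log2 scale, both less than the combined error of 0.29.

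The other 3 ring subunits were lower by less than 2-fold. MCM6 (NM_005915) read 25800.9 ± 2580.1 for DMSO and 12364.0 ± 1236.6 for HTE, a log2 ratio of −0.89 ± 0.20 (1.85-fold lower). MCM3 (NM_002388), the usual partner of MCM5 in the ring, read 59254.6 ± 5925.5 and 31360.9 ± 3136.2, a log2 ratio of −0.75 ± 0.20 (1.68-fold lower). The main MCM7 probe (NM_182776) read 91645.7 ± 9164.6 and 53462.6 ± 5346.3, a log2 ratio of −0.61 ± 0.20 (1.52-fold lower). In each case the DMSO signal lay above the HTE signal by more than the errors, with 54.0%, 59.6% and 65.7% of the DMSO level left after scaling for MCM6, MCM3 and MCM7.

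A second MCM7 probe, for another transcript (NM_005916), read 4470.7 ± 447.4 on the DMSO array and 2182.1 ± 219.2 on the HTE array. Its log2 ratio of −0.86 ± 0.20 was 0.26 below that of the main probe. This difference is larger than the median SD among probes of a gene, which was 0.16 over 3759 genes, and smaller than the combined error of 0.29. The ratio of the bright probe also depended on how the spot was read. It was −0.44 both with normexp on the median spot signal and with the median spot signal left uncorrected, in place of the processed signal. For MCM7 the size of the change with the processed signal ran from 1.52-fold to 1.82-fold lower by probe. With the median spot signal the bright probe gave a smaller change, and the direction was the same throughout.

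For MCM8 and MCM9, partners in 1 helicase, the comparison depended on the probe of MCM9. MCM8 (NM_182802) read 31853.1 ± 3185.3 for DMSO and 11738.4 ± 1174.0 for HTE, a log2 ratio of −1.27 ± 0.20 (2.41-fold lower), with 323 genes (1.36%) below it. Its ratio was close to those of MCM2, MCM4 and MCM5. The main MCM9 probe (NM_017696) read 1092.0 ± 110.2 and 879.9 ± 90.5, a log2 ratio of −0.14 ± 0.21, which is within its error of 0. MCM8 and MCM9 differed by 1.13 on the log2 scale, 3.88 times their combined error, by this probe, and by 0.38, 1.30 times it, by the other MCM9 probe above background.

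MCM9 was the member whose value depended most on the probe. That second probe, for another transcript (NM_153255), read 1134.1 ± 114.4 on the DMSO array and 545.3 ± 58.6 on the HTE array, a log2 ratio of −0.89 ± 0.21 (1.85-fold lower). On the DMSO array alone it was slightly brighter than the main probe, at 1134.1 against 1092.0. The main probe was chosen by the mean of both arrays, so the choice depended on the HTE array too. The probes differed by 0.74, so that MCM9 moved from beside the median of all genes to beside MCM6 with the choice between them, and their mean was −0.51. Both lie near the same edge of the array, where the neighbouring spots had median ratios of 0.059 and −0.00050. The remaining 2 MCM9 probes, also for NM_017696, were not well above background on either array, with signals of at most 21.3 for DMSO and 20.2 for HTE, and give no ratio.

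MCM10 (NM_182751) read 6440.0 ± 644.2 on the DMSO array and 3359.9 ± 336.6 on the HTE array. Its log2 ratio was −0.77 ± 0.20, a 1.70-fold lower value, with 58.7% of the DMSO level left. MCM10 thus lay among the less reduced ring subunits, 0.021 from MCM3 and 0.12 from MCM6, both well within the combined error.

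From the lowest ratio to the highest, the order was MCM2, MCM5, MCM8, MCM4, MCM6, MCM10, MCM3, MCM7 and MCM9. Of the 8 pairs of neighbours in this order, 6 differed by less than their combined error. The exceptions were MCM4 and MCM6, which differed by 0.37, and MCM7 and MCM9, which differed by 0.47, against combined errors of 0.29. Of all 36 pairs of members, 13 differed by more than 2 combined errors. That count depended on the probes, since it was 6 with the other MCM9 probe above background, 10 with the other MCM7 probe, 2 with both of these and 15 with the other MCM5 probe. By the main probes the pairs were MCM9 against each of MCM2, MCM3, MCM4, MCM5, MCM6, MCM8 and MCM10, MCM7 against each of MCM2, MCM4, MCM5 and MCM8, and MCM2 against MCM3 and MCM10. The software's errors were taken as independent between spots, and the variation between cultures is not in them. For the main probes they were a nearly constant share of the signal, so that the ratio errors lay between 0.204 and 0.208. They are thus not a spread measured for each probe, and the median SD among replicate spots was smaller, at 0.051.

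**Figure D3:**
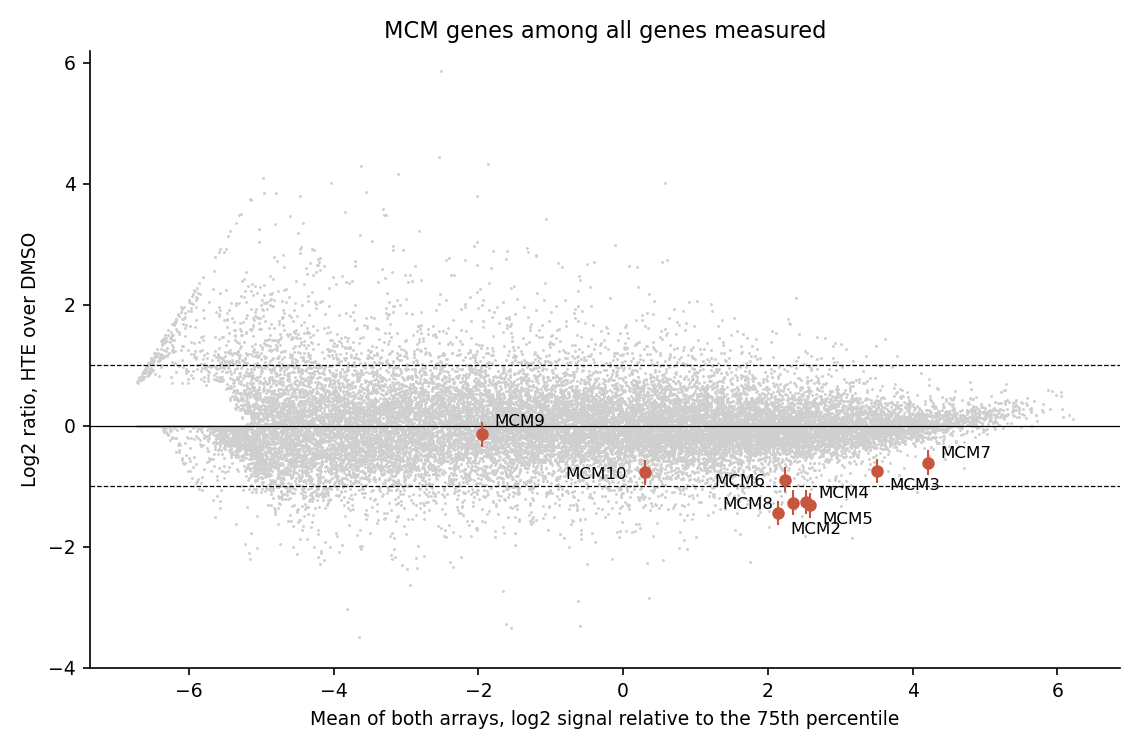
Log2 ratio of HTE over DMSO for each of the 23752 genes and unnamed transcripts measured (grey), against the mean log2 signal of both arrays relative to the 75th percentile, with the 9 MCM genes in red (bars, error of the ratio) and dashed lines at 2-fold. MCM2, MCM4, MCM5 and MCM8 lie below the lower dashed line among bright genes, where few grey points do, and MCM9 (main probe, −0.14) lies within its error of 0.

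Ratios of bright probes scattered less than those of dim probes, as the plot of all genes shows, so the family was also set against genes of like signal. The range of mean signals spanned by the ring subunits held 3353 genes, 7 of them members, since MCM8 lay in it too. Of these 3353 genes, 20 (0.596%) were at least 2-fold lower on the HTE array. The 20 included 4 MCM genes, namely MCM2, MCM4, MCM5 and MCM8, and 1 gene of the helicase pathway lists described next. The place of the probes on the slide changed little. The median ratio of the spots around each member probe lay between −0.06 and 0.11, and after it was subtracted the ratios of the main probes ran from −1.43 for MCM2 to −0.20 for MCM9, with −1.38 for MCM8 and −0.69 for both MCM3 and MCM7.

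The genes that load the ring onto origins were examined next. Of 11 origin licensing genes, all measured, 10 were lower with HTE, 3 of them by 2-fold or more, and the median log2 ratio was −0.58. CDC6, the loading ATPase that joins the origin recognition complex before each S phase, had the lowest ratio, with signals of 812.3 for DMSO and 211.6 for HTE and a log2 ratio of −1.77 (3.41-fold lower). ORC1 and ORC6, subunits of that complex, had log2 ratios of −1.18 and −1.13. The other subunits spread up to 0.04, with ORC5 at −0.63, ORC2 at −0.58 and ORC3 at −0.26.

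ORC4 had the highest ratio of the list, 0.04 by its main probe and −0.35 by the other, and its sign turned negative under each other scaling except quantile normalization, with the median spot signal with or without normexp, with the mean over its probes and with the neighbouring spots subtracted. CDT1, which brings the ring to the origin, read 27924.2 and 13589.4, a log2 ratio of −0.87 (1.83-fold lower). Its inhibitor geminin (GMNN) had a smaller ratio, −0.32, with signals of 46801.5 and 33311.5. KAT7, the histone acetyltransferase that assists licensing, was at −0.35, and LRWD1, which holds the origin recognition complex on chromatin, was at −0.02 and turned positive, at 0.05, with the neighbouring spots subtracted. With quantile normalization LRWD1 and ORC4 were both above 0, and 9 of the 11 genes were lower.

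The genes that turn the loaded ring into the active helicase all had lower values on the HTE array. Of these 13 genes, 13 were lower, 6 of them by 2-fold or more, and the median log2 ratio was −0.98. CDC45 read 17409.7 for DMSO and 6940.2 for HTE, a log2 ratio of −1.16 (2.23-fold lower). The 4 GINS subunits, which with CDC45 complete the helicase, had log2 ratios of −1.30 (GINS1), −0.90 (GINS2), −0.83 (GINS3) and −0.94 (GINS4). These lay within the range of the ring subunits, from −1.44 to −0.61.

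The activating factors were lower to a like degree. TICRR and MTBP, which act together to bring CDC45 to origins, had log2 ratios of −1.14 and −1.16, and DONSON, which delivers GINS, had −1.09. TOPBP1, a scaffold in the loading of CDC45, had −0.98, and the helicase RECQL4, which also takes part in initiation, had −0.69. The kinase CDC7, which phosphorylates the ring, was the highest of this list, with signals of 4500.3 and 3372.0 and a log2 ratio of −0.25. Its activators DBF4 and DBF4B had −0.86 and −1.19 by their main probes. The other DBF4 probe gave −0.52, nearer to CDC7, and DBF4B was dim, with signals of 535.6 and 208.6.

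Of 15 genes for partners of the helicase at the fork, 14 were lower with HTE, 4 of them by 2-fold or more, and the median log2 ratio was −0.75. The lowest was CLSPN (claspin, a mediator of the replication checkpoint), with signals of 1040.5 and 381.3 and a log2 ratio of −1.28. MMS22L and TONSL, which form a complex that recognises new histones behind the fork, had a log2 ratio of −1.16 by their main probes. The other probe gave −1.19 for MMS22L and −0.68 for TONSL, which is short of 2-fold. DSCC1, of an alternative clamp loader, had −1.08. The fork protection pair TIMELESS and TIPIN had −0.72 and −0.49, and WDHD1, which links the helicase to polymerase alpha, −0.91. Those known to bind MCM proteins outside the ring were MCMBP, at −0.48, and HROB, which recruits MCM8 and MCM9, at −0.51 by its main probe and 0.03 by the other. MCMDC2, an MCM-like gene of meiosis, passed background for DMSO but not for HTE, and its −0.75 is a bound. FBXL12, a subunit of a ubiquitin ligase, was highest at 0.03, which turned negative with scaling to the median, to GAPDH, to the reference genes or to the spike-in, with no scaling, and with the neighbouring spots subtracted.

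Of the 39 genes of these 3 lists together, 37 were lower and 13 were at least 2-fold lower, against the 3.03% of all genes, and their median log2 ratio was −0.86 against 0 for all genes. The 13 genes often used as references had ratios from −0.49 (TBP) to 0.43 (GAPDH), with a median of 0.09 that turned negative with quantile normalization, with no scaling, with GAPDH as the reference and with spike-in scaling. The members of the lists work in 1 process and were known to do so when the lists were written, so that their counts are a description and not independent evidence.

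**Figure D4:**
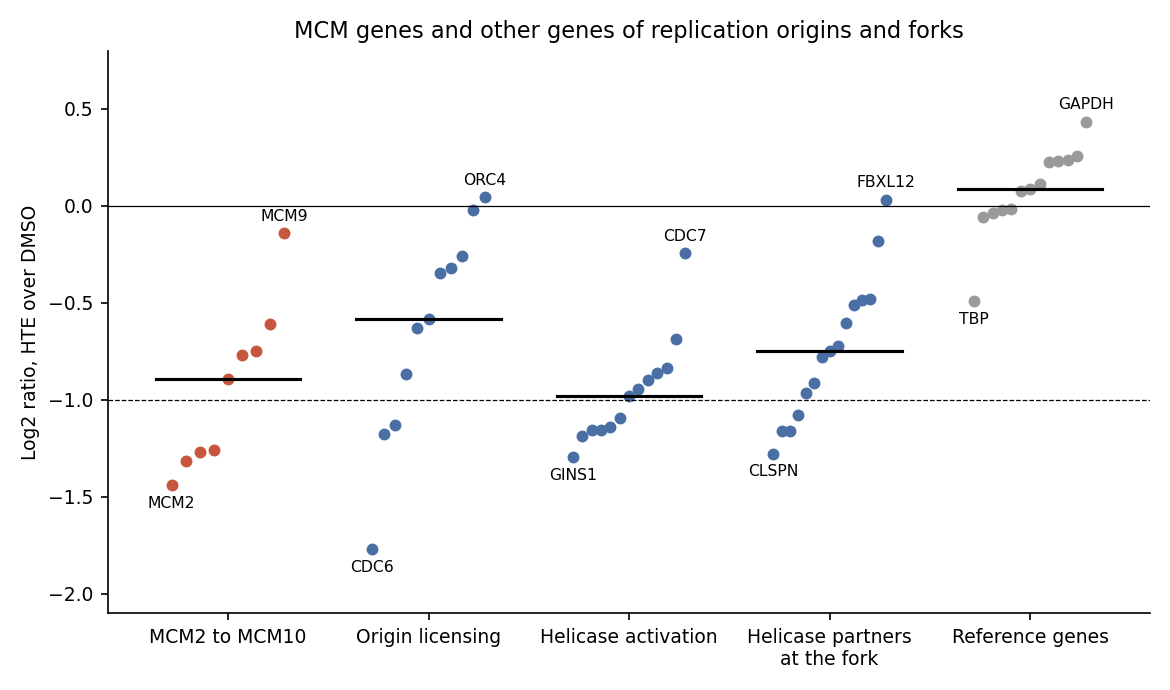
Log2 ratio of HTE over DMSO (vertical axis) for each gene of the MCM family (red), of 3 lists of genes that act with the MCM helicase (blue) and of 13 reference genes (grey), ordered within each list, with bars for the medians and a dashed line at 2-fold lower. The medians are −0.89, −0.58, −0.98, −0.75 and 0.09 from left to right.

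Some MCM genes share their promoter region with a neighbour transcribed the other way, which gives a comparison within the same stretch of DNA. Among the 7 members with a promoter window, 3 had such a neighbour with a start within 1000 bases. MCM4 and MCM5, for which no window was held, were not searched. The start of TPRA1 lay 180 bases from that of MCM2. The log2 ratio of TPRA1 was −0.15 ± 0.20, which is 1.29 above MCM2 against a combined error of 0.29. AP4M1, a subunit of an adaptor complex for protein sorting, began as near as 40 bases from a start of MCM7, and its log2 ratio was 0.09 ± 0.21, above that of MCM7 by 0.70. TRMT6, a subunit of a tRNA methyltransferase, began 119 bases from MCM8 and was lower on the HTE array too, with a log2 ratio of −0.70 ± 0.20, above that of MCM8 by 0.57. In all 3 pairs the MCM gene had the lower ratio, by more than the combined error of 0.29. The difference between MCM8 and TRMT6 was short of 2 combined errors, the limit used for the pairs of members.

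The direction of the family held under every processing setting tried, since all 9 genes were lower on the HTE array in each of them. This is a limited check. Each other scaling moved the median of all genes down, from −0.016 with quantile normalization to −1.21 with the spike-in, and a cutoff cannot change a sign. MCM2, MCM4, MCM5 and MCM8 were at least 2-fold lower with each of 14 other ways of processing the arrays that kept this cutoff. Several of these could not have changed that. The settings for dim probes and for outlier spots left the values of these genes as they were. So did the mean over probes for MCM2, MCM4 and MCM8, which have no other probe. The sizes moved with the scaling, most with the E1A spike-in probes, where all 9 genes were past 2-fold but so were 68.2% of all genes. The 8 spike-in probes above background were themselves unequal, with unscaled log2 ratios between 0.45 and 1.57. With GAPDH as the reference 8 of the 9 were past 2-fold, against 11.1% of all genes, and without scaling 5 were, against 5.09%.

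**Figure D5:**
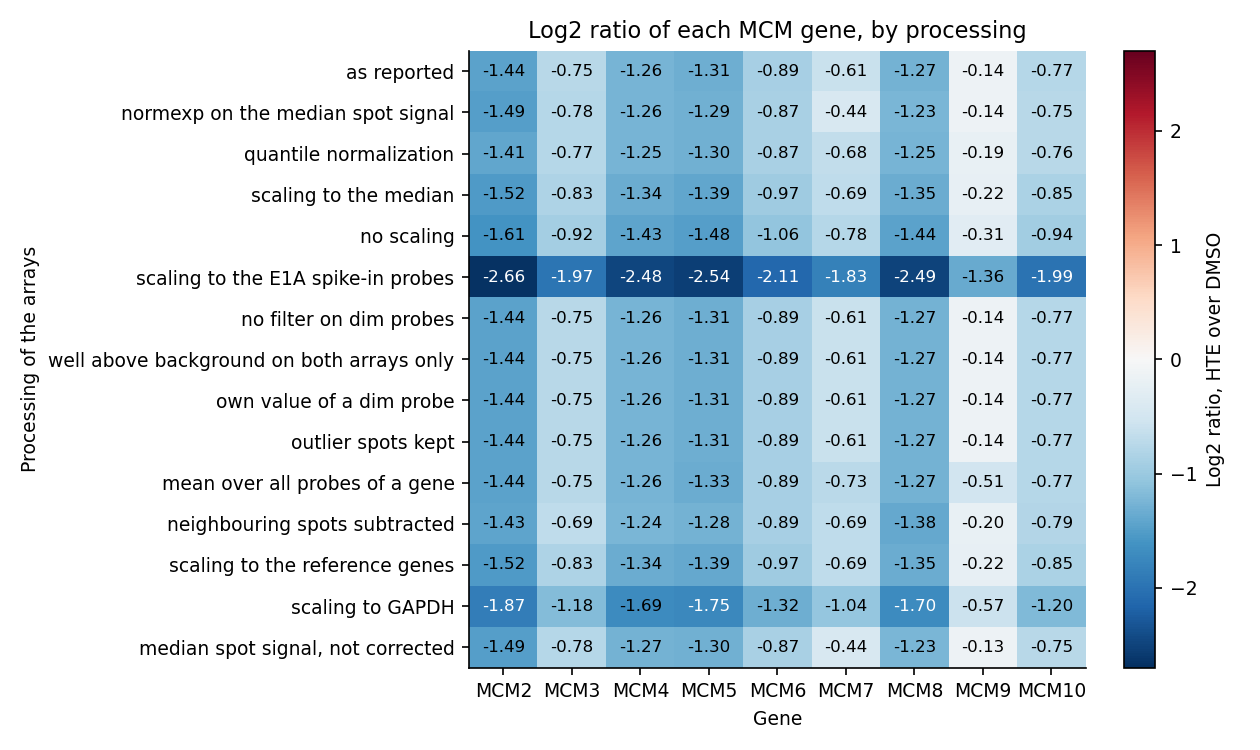
Log2 ratio of HTE over DMSO of each MCM gene (columns) as reported and under each other way of processing the arrays (rows), with the value printed in each cell and coloured by the scale at the right. All cells are below 0, MCM2 has the lowest value in every row, from −2.66 to −1.41, and MCM9 has the highest, from −1.36 to −0.13.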

How the data were processed

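The authors deposited the Agilent Feature Extraction output of each array (version 11.5.1.1 per the file headers, 10.7 per the labels). The values used are the intensity of each spot, as processed signals that the authors' software had background-subtracted and spatially detrended, with an error and flags for background, saturation and outliers. They were not scaled between arrays. Control and outlier spots were left out, log2 was taken, the 75th percentile of each array was subtracted, and replicate spots were averaged. Probes were kept if a share of 0.5 or more of their spots passed the background flag for DMSO or HTE. For a probe that passed for only 1 of them, the ratio is a bound. It was computed against the higher of its own dim signal and the dimmest signal that passed there. Where this put the array that did not pass above the one that did, the ratio was set to 0. Probes were named by RefSeq accession with the table of GRCh38.p14 genes, where 24546 of 25219 NM_ probes and 28174 of all 50599 were found. The file headers name another build, so no coordinates of probes are given. A gene is represented by its main probe, the one with the highest mean log2 signal over both arrays. The cutoff of 2-fold is that of the study's methods.

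The error of a ratio combines the software's errors of both signals. The median SD of the log2 ratio among replicate spots was 0.051 (688 probes). The number of arrays, 1 per condition, limits the precision of every value.

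The members, the gene lists and the markers were chosen with earlier results of these data known. All 9 members with every probe, any gene of the 3 helicase lists, always the lowest and highest of each, and neighbours with divergent starts within 1000 bases could be named. The alternatives were normexp (offset 50, on the median spot signal and the local background median), quantile normalization, scaling to the median, to the E1A spike-in probes or not at all, dim probes kept, probes required to pass on both arrays, a dim probe at its own value, outlier spots kept, the mean over the probes of a gene, the neighbouring spots subtracted, and cutoffs of 1.5-fold and 3-fold. Scaling to GAPDH or to the reference genes, and the uncorrected median spot signal, were later choices, made after seeing the data. Promoter sequences are those of RefSeq. The steps were tested on the DMSO array against a simulated copy of itself, with noise added and some bright genes lowered. That shift was larger than any MCM ratio as reported, so calls near 2-fold were not tested by it. Versions were R 4.3.3, limma 3.58.1, Python 3.11.15, pandas 2.3.3, numpy 2.4.6 and matplotlib 3.10.9.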

Additional observations from a re-analysis of the deposited data

How the results depend on the processing

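No paired analysis was possible because each condition has 1 array. The 9 MCM genes were lower on the HTE array under every setting, and the median of MCM2 to MCM7, −1.07 as reported, moved past the replicate-spot SD with the median as the scale (−1.16), no scaling (−1.25), the E1A spike-in probes (−2.30), the reference genes (−1.15) and GAPDH (−1.51). The 4 MCM genes at least 2-fold lower became 9 with the spike-in and 8 with GAPDH, and 8 and 0 with cutoffs of 1.5-fold and 3-fold. The 5 MCM probes became 8 without scaling, 12 with the spike-in and 11 with GAPDH, and 11 and 0 at those cutoffs. The 13 helicase pathway genes became 21 without scaling, 39 with the spike-in and 28 with GAPDH, and 27 and 1 at those cutoffs. The scalings to GAPDH and to the reference genes and the uncorrected median spot signal were chosen after the data had been seen. The other settings moved none of these counts by over 1.5 times. Over all genes, 468 were at least 2-fold lower and 825 higher with normexp on the median spot signal, 487 and 1000 with that signal uncorrected, 1320 and 1341 with the own value of dim probes, and 1270 and 2297 with no filter, which also moved the median of all genes by 0.20. Among single genes, the median spot signal moved MCM7 past that SD, to −0.44 with normexp and −0.44 without it. Without normexp it moved MCM2 as well. The median spot signal also lacks the software's background subtraction and spatial detrending, and the part of each in the move of MCM7 was not tested. Of the 9 genes quantile normalization moved 2, the mean over probes 2 and the neighbouring spots 4. Which scaling is right was not tested. With 1 array per condition no value holds the spread between cultures, and signal over background limits MCM9 alone among the members, 2 of whose 4 probes were not well above background.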
